A study of Mus musculus and Homo sapiens with 47 samples.

Results

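A human B cell lymphoma line kept in the PRC2 inhibitor UNC1999 was followed by setting its 4 latest libraries, days 5 and 6, against the 2 libraries of day 1. These 6 libraries were picked by the compound and day on their labels from 13 RNA-seq libraries of the line SUDHL10, in a series of 47 samples. The rest of the series is from mouse intestinal epithelium and from chromatin immunoprecipitation of the same line, which were not analysed here. All 6 libraries came from cells in 5 uM UNC1999 and differ by the day of collection, with 2 libraries each at day 1, day 5 and day 6. Levels are also given, without a test, for 2 UNC1999 libraries of day 3, 2 untreated libraries of day 5 and 1 library each of days 1, 3 and 5 in 5 uM MAK683, another inhibitor of the same complex. The untreated cells were collected at day 5, so days of treatment and days in culture cannot be told apart in the comparison of late with early UNC1999 libraries. UNC1999 day 1 and untreated libraries differ in both compound and day of collection, so these cannot be told apart in their gaps either. The labels call the libraries biological replicates and name no separate cultures. The p-values therefore take the spread among libraries as the error, and that spread may be technical only.

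Polycomb repressive complex 2 (PRC2) places methyl groups on lysine 27 of histone H3 and keeps many developmental and lineage genes silent. EZH2 or its relative EZH1 is its catalytic subunit, EED binds the finished mark, and SUZ12 holds the complex together. UNC1999 is a small molecule that competes with the methyl donor in EZH2 and EZH1, so the enzyme stays in the cell while the mark is lost as chromatin is copied and histones are replaced. SUDHL10 was established from a diffuse large B cell lymphoma of germinal centre type, a tumour class in which EZH2 is often mutated and holds B cells in the germinal centre state.

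The libraries held between 26234896 and 39315662 counts, and 15278 of 25369 listed genes had enough counts to test. Each value below is a level in CPM (counts scaled to a common library size) for 1 library, or a log2 difference between days from edgeR's quasi-likelihood test with Benjamini-Hochberg adjustment over all tested genes. A gene is called when its adjusted p is under 0.05. Levels are not compared between genes. Over the 13 libraries, those of UNC1999 lay in order of day on the main axis of variation, which held 39.6% of the variance. Day 1 of UNC1999 sat at -55.7 and -56.8 on it and day 3 at 28.8 and 29.9. Day 5 sat at 75.8 and 71.9 and day 6 at 87.4 and 87.5. The untreated libraries lay at -71.9 and -77.7, and MAK683 days 1, 3 and 5 at -62.3, -29.4 and -27.7. On the next axis, with 26.5% of the variance, UNC1999 day 1 lay at -58.3 and -57.4, far from the untreated libraries at 75.1 and 64.1. MAK683 lay at -63.6 on day 1, -42.5 on day 3 and 99.8 on day 5, the last beyond the untreated libraries. B cell markers were present throughout, with a summed level of 3430 to 3520 CPM at day 1 and 4540 to 4760 CPM late. RNA came from whole cultures, so fewer cells of a type and less RNA per cell cannot be told apart.

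From day 1 to days 5 and 6 a large set of silent or weakly expressed genes rose, by larger factors than the falls. Of the tested genes, 7533 (49.3%) were called, 3397 higher (22.2%) and 4136 lower (27.1%). The excess of falls depends on the fit: in 9 of 14 alternatives more genes were higher than lower, among them 3794 against 3248 with DESeq2 size factors and 2952 against 2418 without the day 1 replicate 2 library. At 2-fold or more, 2016 genes were higher (13.2%) and 356 lower (2.33%), and 214 were lower without that library. The counts of each gene list below are to be read against 22.2% higher and 27.1% lower over all tested genes. Among the 2016 rises the median log2 difference was 3.2, 1445 rose by at least 4-fold and 801 by at least 16-fold. Among the 356 falls the median was -1.32, and 57 fell by at least 4-fold. The median over all tested genes was -0.05. Every late library lay above both day 1 libraries for 4274 genes (28%) and below both for 5171 (33.8%).

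**Figure D1:**
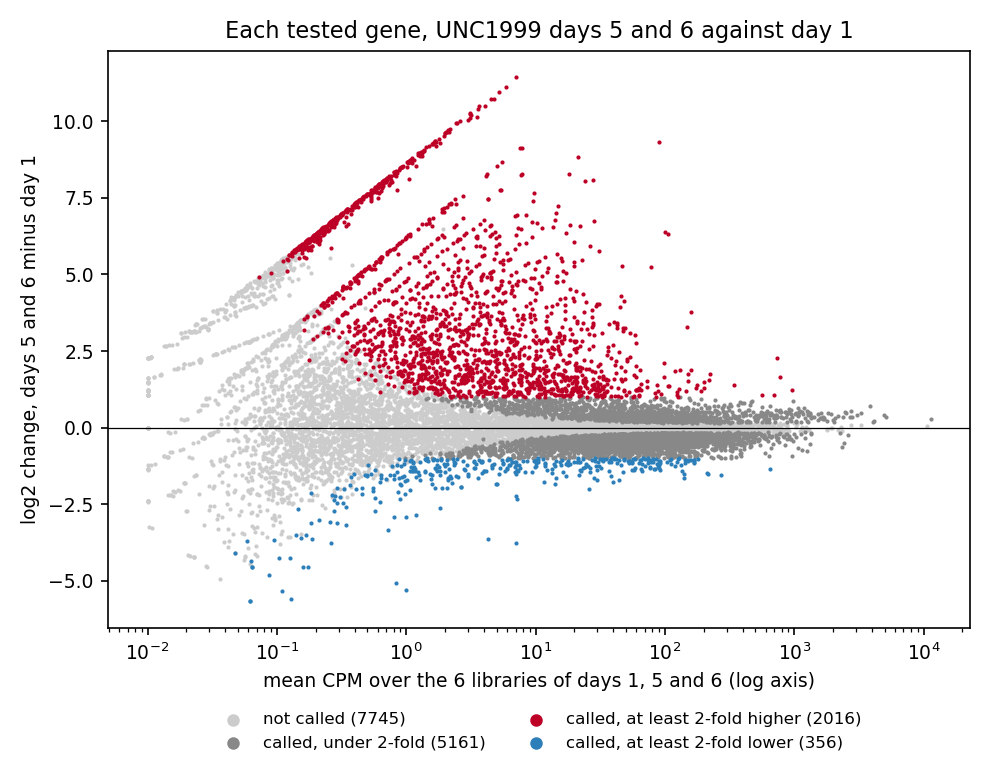
Each point is 1 of 15278 tested genes, with the mean CPM over the 6 libraries on a log axis and the log2 difference of days 5 and 6 from day 1 on the vertical axis. Genes called at least 2-fold higher (2016) reach far larger sizes than those called at least 2-fold lower (356); the straight upper edge holds genes at 0 counts in both day 1 libraries, whose fitted size is set by the fit and is not a bound.

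The genes that rose came mostly from the low end of the expression range. In 1339 of the 2016 rises the day 1 mean was under 1 CPM, against 4303 of all 15278 tested genes, and 390 had no count at day 1, against 811. Such a gene entered the test only if it was counted in some other group, so its share among tested genes is not a rate. By the level in untreated cells, and over every gene in the table, 4.37% of genes under 0.1 CPM rose by at least 2-fold, 21.8% of those at 0.1 to 1 CPM and 24.1% of those at 1 to 10 CPM. The share was 3.2% at 10 to 100 CPM and 0.991% over 100 CPM. Falls of at least 2-fold were most frequent at 1 to 10 CPM, at 4.99%. The plot of called genes by untreated level shows these shares.

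**Figure D2:**
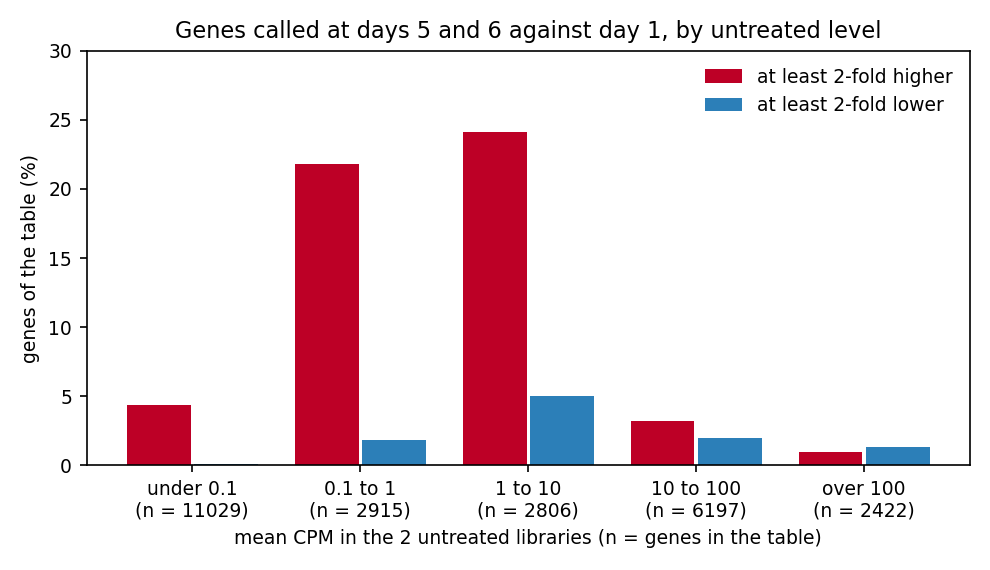
Bars give the percentage of all genes in the table, grouped by their mean CPM in the 2 untreated libraries, that were called at least 2-fold higher or lower at days 5 and 6 against day 1. Rises make up 21.8% and 24.1% of the genes at 0.1 to 1 and 1 to 10 CPM and 0.991% of those over 100 CPM.

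Levels at day 3, which was not part of the comparison, lay on the way for many of these genes. There the 2016 rises stood at a median of 51.6% of their late level (interquartile range 27.7 to 75.6). Taken day by day, 6349 genes (41.6%) were called at day 5 against day 1 and 7262 (47.5%) at day 6. Of the 2016 rises, 1834 passed at day 5 and 1932 at day 6. Those day 5 and day 6 calls share the day 1 libraries and are not independent. The 2016 rises were also picked by the mean of these same day 5 and day 6 libraries, so their passing on each day is not separate support. The mean at day 6 exceeded that at day 5 in 1506 rises (74.7%), against 48.7% of all tested genes. Day 6 itself differed from day 5 in 120 genes (0.785%), 71 higher (0.465%) and 49 lower (0.321%), and 33 of the 2016 rises were among the higher ones against 2 among the lower. The count for day 6 against day 5 rests on single libraries: 79 genes were called without day 1 replicate 2, and 27, 24, 37 and 17 without day 5 replicate 1, day 5 replicate 2, day 6 replicate 1 and day 6 replicate 2.

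The core subunits of PRC2 changed by less than 2-fold. EZH2 held 188 and 211 CPM at day 1 and 180, 209, 194 and 184 CPM late, a log2 difference of -0.06 (SE 0.074, adjusted p = 0.546), and its late and early values overlapped. EED, the subunit that binds the mark, fell by 0.46 on the log2 scale (SE 0.084, adjusted p = 6.44e-05), from 51.2 and 54 CPM to between 34.9 and 41.1 CPM. EZH1 had 52.1 and 61.2 CPM at day 1 and 40.3 to 47.5 CPM late and fell by 0.39 (SE 0.1, adjusted p = 0.0025), a call lost without the day 1 replicate 2 library (-0.2, adjusted p = 0.251). SUZ12 had 198 CPM in both day 1 libraries and 159 to 194 CPM late, with an adjusted p of 0.0493 that missed the threshold in 12 of 14 alternative fits.

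Accessory PRC2 subunits were among the genes that fell. Of 13 tested PRC2 genes, 7 were lower and 1 higher, against 27.1% and 22.2% of all tested genes, with a median of -0.19. Without the day 1 replicate 2 library 3 were lower. JARID2, which helps bring PRC2 to its sites, was the gene that rose, from 17.6 and 15.2 CPM to 29.1, 29.1, 30.2 and 33.5 CPM. AEBP2 and MTF2, which also guide the complex to chromatin, fell by 0.41 (SE 0.07) and 0.38 (SE 0.074), and neither gene's late values reached the day 1 range. In PRC1, the partner complex that reads the mark and compacts chromatin, 11 of 24 genes were higher (45.8%) and 7 lower (29.2%, close to the 27.1% of all genes), with a median of 0.22. Without day 1 replicate 1 these counts were 8 and 4 with a median of 0.13, and without day 1 replicate 2 also 4 were lower. PHC1, a scaffold that lets PRC1 units polymerise, rose from 2.99 and 2.27 CPM to 20.5 ± 3.55 CPM (SD, n = 4), a log2 difference of 2.94 (SE 0.17). AUTS2, which marks a non-repressive form of PRC1, rose 3.15-fold and BCORL1, a corepressor of the same family of complexes, 2.38-fold. CBX7, a reader of the methyl mark, went from 5.4 and 4.23 CPM to 12.1, 16, 11.8 and 11.9 CPM, below its untreated 31.4 and 29.8 CPM. L3MBTL2, a subunit of a variant complex, was the member with the smallest adjusted p among those that fell, from 159 and 153 CPM to 88.6 ± 7.18 CPM (SD, n = 4).

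The 15 genes with the largest rises were close to silent at day 1 and clearly expressed in all 4 late libraries. SYNPO, which encodes the actin-binding protein synaptopodin, led the set, from 0.123 and 0.275 CPM to 106, 80, 165 and 188 CPM (log2 difference 9.33, SE 0.22, adjusted p = 7.85e-20). Its untreated libraries had 6.94 and 8.28 CPM, so day 1 lay below both the untreated and the late libraries. TBX21, the T-bet transcription factor of T helper cells and of some memory B cells, had 1 count at day 1 and 9.76, 6.59, 18.1 and 13 CPM late. The ratio of its counts was 709, with a 95% counting interval of 127 to 28000. SOX9, a transcription factor of cartilage and of epithelial progenitors, also had 1 count at day 1 and reached 10.1, 7.68, 13.3 and 14.3 CPM, a ratio of 676 (121 to 26700). At day 3 SOX9 stood at only 0.222 and 0.0815 CPM, whereas HSPG2, which encodes the matrix proteoglycan perlecan, was by then at 13.3 and 15.5 CPM on its way to 31.7 ± 4.88 CPM (SD, n = 4).

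Several of the 15 encode signalling and membrane proteins. CDK18, a cyclin-dependent kinase relative, went from 0.123 and 0.0344 CPM to between 20.7 and 33 CPM. ACE, the angiotensin-converting enzyme, rose from 0.123 and 0.172 CPM to 32.5, 28.2, 52.7 and 54.1 CPM, 268-fold by the fit (log2 difference 8.07, SE 0.26). ACE was also higher at day 6 than at day 5, by 0.81 on the log2 scale (adjusted p = 0.00412), as was SYNPO, by 0.93 (adjusted p = 5.79e-05). FABP6, a bile acid carrier of the ileum, rose from 0.123 and 0.137 CPM to 35.9 ± 6.89 CPM (SD, n = 4). DAB2IP, a scaffold that restrains RAS signalling, had reached 14.7 and 11.6 CPM at day 3 and held 22.1, 21.8, 22.6 and 23.2 CPM late. CD6, a scavenger-type receptor of T cells and of some B cells, rose from 0.123 and 0.206 CPM to 17.6, 18.4, 25.9 and 24.3 CPM. TANC1 and STXBP6 had 2 counts each at day 1, and their count ratios were 347 (95.9 to 2870) and 340 (94 to 2810). SPTB, a spectrin of the red cell skeleton, the kinase MAST4, the protease inhibitor SPINT2 and the tetraspanin TSPAN9 completed the set, with late means of 14.7, 14.2, 10.7 and 12.7 CPM. In the plot of these genes by library, no late value of any of the 15 touched a day 1 value, which the rule for naming them required.

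**Figure D3:**
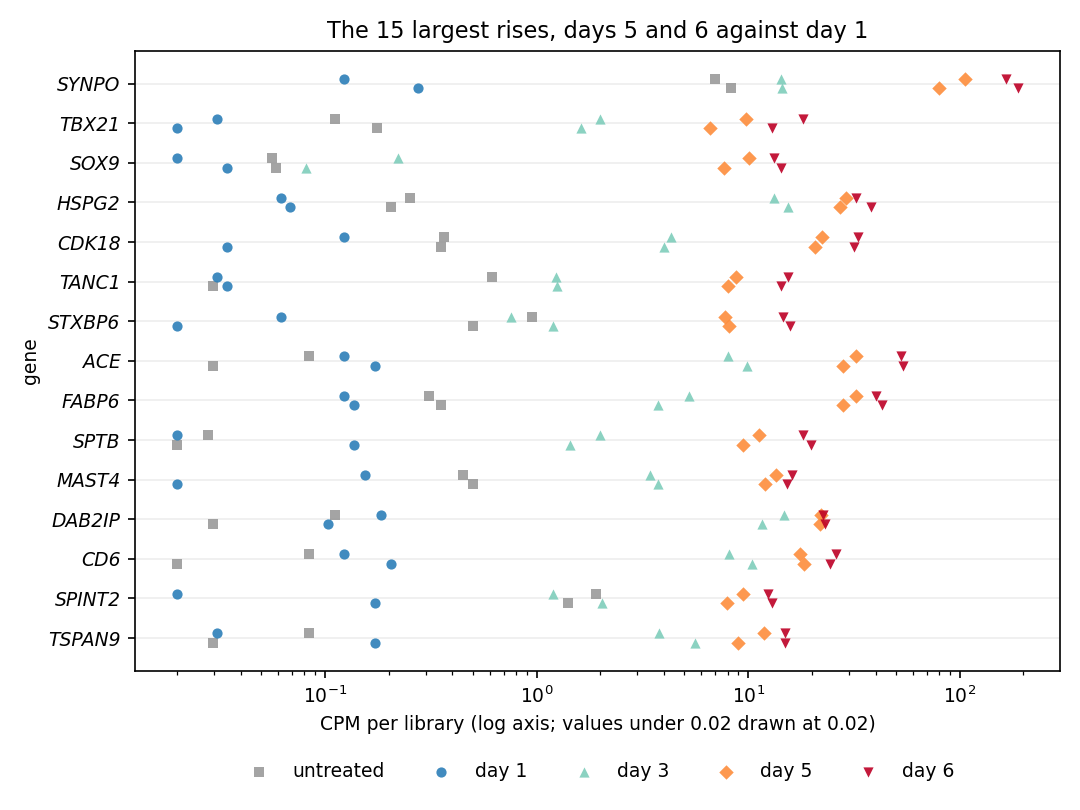
CPM in each library (log axis) for the 15 largest rises, coloured by day, with the untreated libraries in grey. Day 3 values lie between day 1 and the late libraries for every gene, and SYNPO at 6.94 and 8.28 CPM untreated stands out from genes such as ACE at 0.0843 and 0.0295 CPM.

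Developmental regulators outside the HOX clusters rose in part. Of 149 listed factors 41 were tested, 14 were higher (34.1%) and 5 lower (12.2%), with a median of 0.64; over the 29 with at least 10 counts in an untreated or day 1 library the median was 0.17, against -0.1 over all tested genes so restricted. Without day 1 replicate 1, day 1 replicate 2 or day 6 replicate 1 the factors that were lower numbered 3. SOX2, a pluripotency and neural progenitor factor, had no count at day 1 and 6.29, 5.12, 13 and 11.1 CPM late, at least 175-fold higher against a floor of 3 counts over both day 1 libraries. GATA4, a heart and gut factor, also went from no count to 1.48, 0.671, 1.16 and 1.55 CPM. PITX1, a hindlimb factor, was already at 204 and 195 CPM and rose 1.56-fold. RUNX2, the bone factor, had 43.6 and 37.8 CPM at day 1 and fell by 0.88 (SE 0.11). HOX genes were mixed: 5 of 19 tested members were higher and 3 lower, shares of 26.3% and 15.8% against 22.2% and 27.1% of all genes, and the median was -0.11. Of the 19 members 4 had under 10 counts in every untreated and day 1 library, and the median over the others was -0.22. Without day 1 replicate 2 the median was 0.21 and 1 member was lower. HOXA13, the most 5′ gene of its cluster, rose 9.93-fold from 0.278 and 0.275 CPM to 2.78 ± 0.633 CPM (SD, n = 4), and HOXC4 rose 2.15-fold. HOXA10 fell by 0.47 (SE 0.11) and HOXA9 by 1.03 (SE 0.28), the HOXA9 call being lost without day 1 replicate 2 (-0.78, adjusted p = 0.102). The course of HOXB9 was not a simple rise: it had 3.51 and 4.36 CPM untreated, 0.123 and 0.0344 CPM on day 1, 2.88 and 5.27 CPM on day 3 and 0.379 to 0.984 CPM late.

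Genes that slow the cell cycle rose in part, without CDKN2A. CDKN2A, the classic PRC2 target that encodes p16 and p14ARF, had 106 and 115 CPM at day 1 and 102, 105, 112 and 112 CPM late (log2 difference -0.04, SE 0.069, adjusted p = 0.698). CDKN1A, which encodes p21, rose from 0.956 and 1.58 CPM to 5.49, 6.26, 8.48 and 8.45 CPM (log2 difference 2.48, SE 0.29). CDKN2C rose 1.38-fold, CDKN3 1.25-fold, and CDKN2D fell by 0.58 (SE 0.17), a call lost without day 1 replicate 2 (-0.4, adjusted p = 0.155) and with days 5 and 6 as 1 group of 4 libraries (-0.49, adjusted p = 0.0648). GADD45A, a stress-response gene that p53 can induce, rose from 2.28 and 3.16 CPM to 21.4 ± 3.82 CPM (SD, n = 4). Its late libraries, at 16.9 to 25 CPM, overlapped the untreated ones at 16.3 and 18 CPM. SESN1 and FDXR, also p53 targets, rose 3.14-fold and 3.12-fold. The p53 list as a whole did not move one way: 5 of 27 tested members were higher (18.5%) and 9 lower (33.3%), with a median of -0.01. CCND2, a D-type cyclin that drives entry into the cycle, rose from 0.278 and 0 CPM to 13.8, 13.6, 17.4 and 16.6 CPM.

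Replication genes fell slightly and mitosis genes rose slightly. None of 45 replication genes was called higher and 27 (60%) were lower, with a median of -0.23; without the day 1 replicate 2 library 13 were lower, while 25 to 32 mitosis genes were higher under every setting tried. Of 44 mitosis genes 28 (63.6%) were higher and 1 lower, with a median of 0.29. E2F1, a driver of S phase genes, fell from 135 and 148 CPM to 80.5, 85.1, 82.2 and 80.1 CPM (log2 difference -0.79, SE 0.069). ORC6 and CDC6, which load the replicative helicase, and GINS2, a part of that helicase, fell by 0.77, 0.59 and 0.58. CCNB1, the mitotic cyclin, rose from 119 and 123 CPM to 209, 208, 210 and 206 CPM (log2 difference 0.78, SE 0.066). CENPF, KIF20A and TOP2A, which act at kinetochores, the spindle and chromosomes, rose 1.6-fold, 1.64-fold and 1.46-fold. None of these changes reached 2-fold. Day 1 itself differed from the untreated libraries in these lists, by medians of 0.82 for replication and -0.68 for mitosis, and that comparison shares the day 1 libraries with the one above.

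The apoptosis regulators went both ways. In the BCL2 family 5 of 16 tested genes were higher and 5 lower (31.2% each, against 22.2% and 27.1% of all genes), and 3 were higher without day 1 replicate 1. BCL2, the inhibitor of cell death, rose from 1.14 and 1.2 CPM to 10, 8.15, 9.24 and 11.4 CPM (log2 difference 3.04, SE 0.21), with 6.94 and 6.96 CPM in untreated cells. BMF, a death activator, rose 2.01-fold from day 1 to 153 ± 12.6 CPM (SD, n = 4), below its untreated 200 and 219 CPM. The death activator PMAIP1 and the inhibitor BCL2A1 fell by 0.56 (SE 0.082) and 1.38 (SE 0.22). MCL1 went from 871 and 882 CPM to between 630 and 702 CPM.

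Falls of 2-fold or more were fewer, and several of the largest started from a day 1 level above that of untreated cells. VIM, which encodes the intermediate filament vimentin, had 17.3 and 18.3 CPM untreated. It stood at 84.1 and 78.9 CPM on day 1 of UNC1999 and 119 and 115 CPM on day 3, then 28.4, 19.2, 24.8 and 27.6 CPM late. IFITM1, an interferon-induced membrane protein, followed a sharper course, with 0.0843 and 0.177 CPM untreated, 18.7 and 17.9 CPM at day 1 and 1.41 ± 0.714 CPM (SD, n = 4) late, 13.7-fold lower than at day 1. EOGT, EME2 and PVRL1 likewise stood higher at day 1 than untreated and fell by 1.78, 1.63 and 1.77. TP63 differed from these. This p53 relative had 49.1 and 55 CPM untreated, 14.4 and 7.77 CPM at day 1 and 1.19, 0.82, 0.608 and 1.06 CPM late, and fell by 3.62 on the log2 scale (SE 0.25, adjusted p = 1.22e-11).

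**Figure D4:**
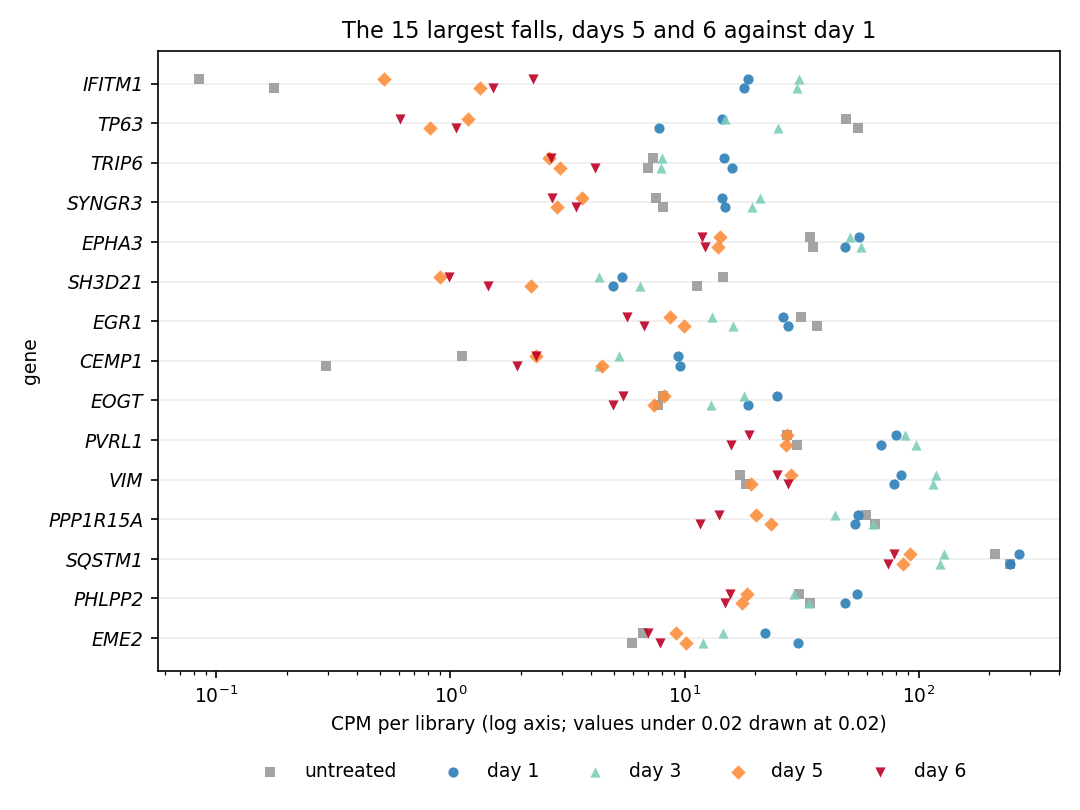
CPM in each library (log axis) for the 15 largest falls, coloured by day, with the untreated libraries in grey. The late libraries lie below both day 1 libraries for every gene, while untreated values lie on either side, below the late libraries for IFITM1 (0.0843 and 0.177 CPM) and above the day 1 libraries for TP63 (49.1 and 55 CPM).

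The genes with the largest falls also included EGR1 and others of stress and signalling. EGR1, an immediate-early factor, fell from 26.3 and 27.7 CPM to 8.7, 9.92, 5.7 and 6.71 CPM (log2 difference -1.83, SE 0.12). PPP1R15A, which restores translation after stress, fell by 1.69 (SE 0.11) and was lower again at day 6 than at day 5, by 0.76 (adjusted p = 0.00844). SQSTM1, the autophagy receptor p62, fell from 268 and 246 CPM to 82.3 ± 7.89 CPM (SD, n = 4). EPHA3, an ephrin receptor, went from 55.5 and 48.5 CPM to 13.1 ± 1.17 CPM (SD, n = 4). The focal adhesion protein TRIP6, the synaptic vesicle protein SYNGR3 and PHLPP2, a phosphatase of AKT, fell by 2.32, 2.22 and 1.63. SH3D21 and CEMP1 fell by 1.92 (SE 0.27) and 1.82 (SE 0.29). Of 30 immediate-early and heat-shock genes, 11 were lower (36.7%, against 27.1% of all genes) and 3 higher (10%, against 22.2%), with a median of -0.33. HSP90AA1 went from 3050 and 2910 CPM to between 1930 and 2330 CPM, with 599 and 638 CPM untreated, and the co-chaperone BAG3 rose 3.88-fold. Among 21 NF-kB targets 11 were lower (52.4%) and 7 higher (33.3%). TNF fell from 44.1 and 45.6 CPM to 18.8, 25.4, 12.2 and 11.9 CPM, and ICAM1, NFKB1 and LTA fell by 1.22, 0.67 and 0.98.

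Most MHC class II genes, which present peptides to helper T cells, rose. Of 18 listed genes 12 were higher (66.7%, against 22.2% of all tested genes) and 2 lower, with a median of 0.72. HLA-DPB1 rose from 97.4 and 94.1 CPM to 249, 241, 319 and 314 CPM (log2 difference 1.54, SE 0.073, adjusted p = 1.69e-14). HLA-DRA, HLA-DPA1 and HLA-DOA rose 2.32-fold, 2.12-fold and 2.22-fold, and none of their late values met a day 1 value. Untreated cells had 102 and 109 CPM of HLA-DPB1, near the day 1 level. CIITA, the master activator of these genes, had 138 and 140 CPM at day 1 and 144, 142, 148 and 155 CPM late (log2 difference 0.08, SE 0.071, adjusted p = 0.366). It was called higher, by 0.16, when the fit held the UNC1999 libraries alone. In MHC class I, 7 of 19 genes were higher (36.8%) and 6 lower (31.6%), but 2 were lower without day 1 replicate 2 and 3 with DESeq2 size factors. HLA-B and HLA-C rose 1.83-fold and 1.65-fold, HLA-F 16.9-fold from 0.278 and 0.344 CPM, and their activator NLRC5 fell by 1.13 (SE 0.077). Untreated cells had 1010 and 1110 CPM of HLA-B, 217 and 243 CPM of HLA-C and 4.1 and 5.57 CPM of HLA-F. Day 1 lay below untreated for each of these HLA genes. The late means of HLA-B and HLA-F, 1150 and 5.3 CPM, were near their untreated levels. HLA genes resemble each other, and how the authors' counting shared reads between copies is not given in the sources used here.

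Interferon-stimulated genes went both ways, with 15 of 39 tested members higher (38.5%, against 22.2% of all genes) and 10 lower (25.6%, close to the 27.1% of all genes). Without either day 1 library 6 were lower. IFITM1, given above among the largest falls, belongs to this list and was 13.7-fold lower. OAS1 and OAS3, which sense double-stranded RNA, rose 2.64-fold and 2.5-fold, and OAS3 was lower at day 6 than at day 5 by 0.58 (adjusted p = 0.0071). Untreated cells had 35.2 and 31.9 CPM of OAS1, within its late range of 31.7 to 43.4 CPM. They had 39.5 and 36.3 CPM of OAS3, below each of its late values. MX2 rose 1.51-fold.

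B cell genes changed in both directions. MS4A1, which encodes CD20, had 1020 and 933 CPM untreated. In UNC1999 it held 317 and 323 CPM on day 1, 277 and 222 CPM on day 3 and 1050, 958, 1000 and 1010 CPM late (log2 difference 1.65, SE 0.081). BACH2, a factor that holds back plasma cell formation, took a similar path from 71 and 73.3 CPM untreated to 7.12 and 4.71 CPM at day 1 and 61.4 ± 13.4 CPM (SD, n = 4) late. BCL6, the master repressor of the germinal centre, went from 295 and 315 CPM to between 532 and 566 CPM, with 623 and 658 CPM untreated. Among germinal centre genes 14 of 28 tested were higher (50%) and 9 lower (32.1%), and among B cell identity genes 14 of 37 (37.8%) and 8 (21.6%). SERPINA9, a germinal centre marker, fell by 1.42 (SE 0.092), and BANK1, an adaptor of the B cell receptor, by 0.79 (SE 0.09). PAX5, the B cell identity factor, had 280 and 259 CPM at day 1 and 228 to 244 CPM late (adjusted p = 0.0694).

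Of 31 tested plasma and memory cell genes 13 were higher (41.9%, against 22.2% of all genes) and 7 lower (22.6%, against 27.1%), and 3 were lower without day 1 replicate 2. MZB1, a chaperone of antibody assembly, rose from 89.3 and 98 CPM to 181, 183, 186 and 191 CPM (log2 difference 0.98, SE 0.077). CD44, an adhesion receptor of memory cells, rose 26.6-fold from 0.463 and 0.722 CPM to 15.7 ± 1.65 CPM (SD, n = 4), and CD38 rose 2.45-fold. Untreated cells had 30.1 and 27.3 CPM of CD38, against a late mean of 34.9 CPM. PRDM1, the plasma cell master factor, stayed between 0.104 and 0.373 CPM late with 1 count at day 1 and was not called (adjusted p = 0.0637). IRF4, its partner, had 2.93 and 0.928 CPM at day 1 and 2.72 to 4.2 CPM late, with 12.1 and 28.5 CPM at day 3 (adjusted p = 0.0533). Both passed the threshold in some alternative fits, PRDM1 in those on UNC1999 libraries alone. KLF2, a factor of resting memory cells, fell by 4.54 (SE 1.3), from 26 counts over both day 1 libraries to 7 over the 4 late ones; the call was lost without day 1 replicate 2 (-3.86, adjusted p = 0.0752).

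Genes that damp B cell receptor signalling or steer migration rose in 14 of 31 tested members (45.2%) and fell in 7 (22.6%), against 22.2% and 27.1% of all genes. Their median was 0.97, or 0.46 without the 5 members that had under 10 counts in every untreated and day 1 library. The inhibitory receptors FCRL3 and LAIR1 rose from 1.45 and 1.1 CPM to 10.4 ± 1.38 CPM and from 1.45 and 0.859 CPM to 10.9 ± 1.99 CPM (SD, n = 4). RGS1 and RGS13, which shorten chemokine receptor signals, rose 3.69-fold and 1.68-fold, and RGS13 was higher at day 6 than at day 5 by 0.54 (adjusted p = 0.00135). CCR7 and CXCR5, receptors that guide B cells in lymph nodes, rose from 0.154 and 0.206 CPM to between 1.71 and 2.87 CPM and from 5.86 and 5.74 CPM to between 13.5 and 27.7 CPM. Untreated cells had 0.703 and 0.589 CPM of CCR7 and 20.1 and 23.3 CPM of CXCR5, within the late range for CXCR5. CXCR4 fell by 0.95 (SE 0.1) and CCR6 by 2.03 (SE 0.63), where CCR6 was not called without day 1 replicate 2 (-1.91, adjusted p = 0.0695).

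Part of the genes of other lineages rose from day 1, some of them from no count. Of 27 tested myeloid genes 14 were higher (51.9%) and 3 lower, all 14 by at least 2-fold, with a median of 2.25 or 1.8 over members counted in an untreated or day 1 library. The median was 3.07 without day 1 replicate 1, where 1 was lower, and 4.58 without day 1 replicate 2. LILRB1, an inhibitory receptor of myeloid and some B cells, rose from 2 and 3.44 CPM to 22.9, 20.9, 37 and 39.2 CPM (log2 difference 3.42, SE 0.18), and S100A4, a calcium-binding protein, 18.8-fold. CD33 had no count at day 1 and 0.984, 2.01, 1.07 and 1.36 CPM late, and CSF1R had 3 counts against 414, a ratio of 60.7 (20.6 to 296). MSR1, a scavenger receptor, fell by 1.07 (SE 0.11). The summed level of the 5 defining myeloid markers moved from 5.33 and 6.75 CPM to between 7.13 and 9.38 CPM, and MPO was at 0 in all 6 libraries. These markers did not move together. CD68 went from 6.66 and 5.33 CPM at day 1 to between 2.82 and 4.6 CPM late. LYZ had 0 CPM in both day 1 libraries and 3.94, 1.67, 0.724 and 0 CPM late, and CD14 was at 0.029 CPM or less. Untreated cells summed to 6.22 and 8.8 CPM for these markers, which the late range overlapped. Of 15 tested T and NK genes 6 were higher and none lower, and of 17 stromal, endothelial and epithelial genes 3 were higher and none lower, where 6 were higher without day 5 replicate 2. Of the tested members of the myeloid, T and NK, and stromal lists 7, 5 and 4 had under 10 counts in every untreated and day 1 library and could pass the filter only through other groups. The 5 defining T and NK markers summed to 0.432 and 0.447 CPM at day 1 and 6.01 to 11.5 CPM late, with CD3D and CD2 at 0 in all 6. Their untreated sums were 2.12 and 2.5 CPM. CD3E, a chain of the T cell receptor complex, rose from 0.278 and 0.103 CPM to 6.32, 5.77, 10.4 and 11 CPM. CD247, another chain of that complex, was already at 9.59 and 10.2 CPM at day 1 and rose 1.98-fold. The 4 stromal markers summed to 0 and 0.0925 CPM at day 1 and 1.02 to 2.38 CPM late, and the 3 epithelial markers to 0.0617 and 0.103 CPM and 0.029 to 3.37 CPM. Untreated sums were 0.871 and 1.47 CPM for stromal and 1.44 and 3.35 CPM for epithelial markers, so both late ranges overlapped them. Day 5 replicate 1 had 0.958 CPM of COL1A1, 0.466 CPM of COL1A2 and 0.337 CPM of COL3A1. In the other late libraries each of these collagen genes was at 0.029 CPM or less. There the stromal sum was nearly all PECAM1, at 0.969 to 1.59 CPM. The epithelial high also came from day 5 replicate 1, where KRT8 had 2.31 CPM against 0.029 to 0.199 CPM in the other late libraries. The part of other cells in these rises was not tested.

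DCN, the matrix proteoglycan decorin, rose from 6.38 and 5.33 CPM to 26.3, 24.6, 47.1 and 46.7 CPM, and it was higher at day 6 than at day 5 by 0.88 (adjusted p = 0.000426). PECAM1, an adhesion molecule of endothelium and leukocytes, had 1 count at day 1 and a count ratio of 70.4 (12.5 to 2800). Of 11 tested germline genes, 5 of them under 10 counts in every untreated and day 1 library, 4 were higher and none lower. PRAME, a tumour antigen of testis, rose from 0 and 0.344 CPM to 7.48, 9.15, 13.9 and 13.5 CPM (log2 difference 5.99, SE 0.47). SSX1 and STK31 had no count at day 1 and were at least 8.22-fold and 6.9-fold higher late, the STK31 call being lost without either day 1 library (adjusted p = 0.105 and 0.0953) and in DESeq2's Wald test (adjusted p = 0.338). SSX1 stood at 1.36 and 1.74 CPM on day 3, above its late 0.414, 0.0746, 0.608 and 0.606 CPM. LIN28B, a fetal regulator of microRNA processing, rose from 0.0308 and 0.412 CPM to 18.5, 18.6, 22.6 and 21.8 CPM.

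Most cholesterol synthesis and uptake genes fell. Of 32 tested genes 21 (65.6%) were lower and 5 higher, with a median of -0.34, while their median at day 1 against untreated was 0.45, in a comparison that shares the day 1 libraries. MVD, an enzyme of the mevalonate pathway, had 366 and 386 CPM at day 1, 123, 137, 140 and 129 CPM late and 184 and 166 CPM untreated (log2 difference -1.51, SE 0.067). HMGCS1 and LSS, also enzymes of the pathway, fell by 0.91 and 0.87. ABCG1, which exports cholesterol, rose from 0.648 and 1.62 CPM to 9.19 and 8.13 CPM on day 5 and 19.6 and 20.1 CPM on day 6, a difference of 1.2 between those days (adjusted p = 0.000668). The exporter ABCA1 and MYLIP, a ubiquitin ligase induced by sterols, rose by 1.14 and 1.08 on the log2 scale. Untreated cells had 20.4 and 21.7 CPM of ABCG1, 20.6 and 19.2 CPM of ABCA1 and 23.8 and 19.9 CPM of MYLIP. Their late means were 14.3, 5.57 and 20.8 CPM, none of them above the untreated mean. Fatty acid genes were mixed, with 9 of 24 higher (37.5%) and 7 lower (29.2%), or 4 lower without day 1 replicate 2. FADS3 and ELOVL2, a desaturase relative and an elongase, rose 15.7-fold and 91.2-fold, DGAT2, which forms triglyceride, rose 6.99-fold, and FASN, the fatty acid synthase, fell by 0.68 (SE 0.066).

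Genes of protein folding, amino acid supply and lysosomes went both ways. AGR2, a disulfide isomerase of secretory epithelia, rose from 1.63 and 1.82 CPM to 118, 97.5, 195 and 191 CPM (log2 difference 6.38, SE 0.15, adjusted p = 7.85e-20), with 16.5 and 17.7 CPM at day 3. Of 32 ER genes 13 were lower (40.6%) and 9 higher (28.1%), against 27.1% and 22.2% of all genes. The excess of falls did not hold with DESeq2 size factors, where 9 were lower and 10 higher, and 8 were lower without day 1 replicate 2. HERPUD1, of ER-associated degradation, DNAJC3, a co-chaperone, and SPCS1, of the signal peptidase, fell by 0.94, 0.7 and 0.66. In the amino acid response led by ATF4, 8 of 35 were higher (22.9%) and 10 lower (28.6%), near the shares of all genes. The transporter SLC7A5 fell by 1.34 (SE 0.081) from 1120 and 1030 CPM to 521, 503, 354 and 349 CPM, and DDIT4, an inhibitor of mTORC1, rose 2.6-fold. Of 38 lysosome and autophagy genes 18 were lower (47.4%) and 9 higher (23.7%). GAA, the lysosomal glucosidase, rose from 4.07 and 3.85 CPM to 38.7 ± 2.8 CPM (SD, n = 4), while MAP1LC3B, an autophagosome protein, fell by 1.15 and ATP6V0D1, of the proton pump, by 1.01.

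Zinc handling and glycolysis genes were also mixed. Of 14 tested metallothionein and zinc genes 4 were higher (28.6%) and 3 lower (21.4%), and MT1X, a zinc-binding metallothionein with near-identical copies, rose 1.66-fold to 19.4 ± 3.9 CPM (SD, n = 4), far below its untreated 509 and 765 CPM. Glycolysis and hypoxia genes counted 6 higher (20.7%) and 7 lower (24.1%) of 29, near the shares of all genes, and 4 lower without day 1 replicate 2. PFKFB3, a regulator of glycolysis, rose from 47.5 and 47 CPM to between 93.1 and 113 CPM, and ALDOA fell by 0.52 (SE 0.072). The plot of gene lists sets all of these side by side.

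**Figure D5:**
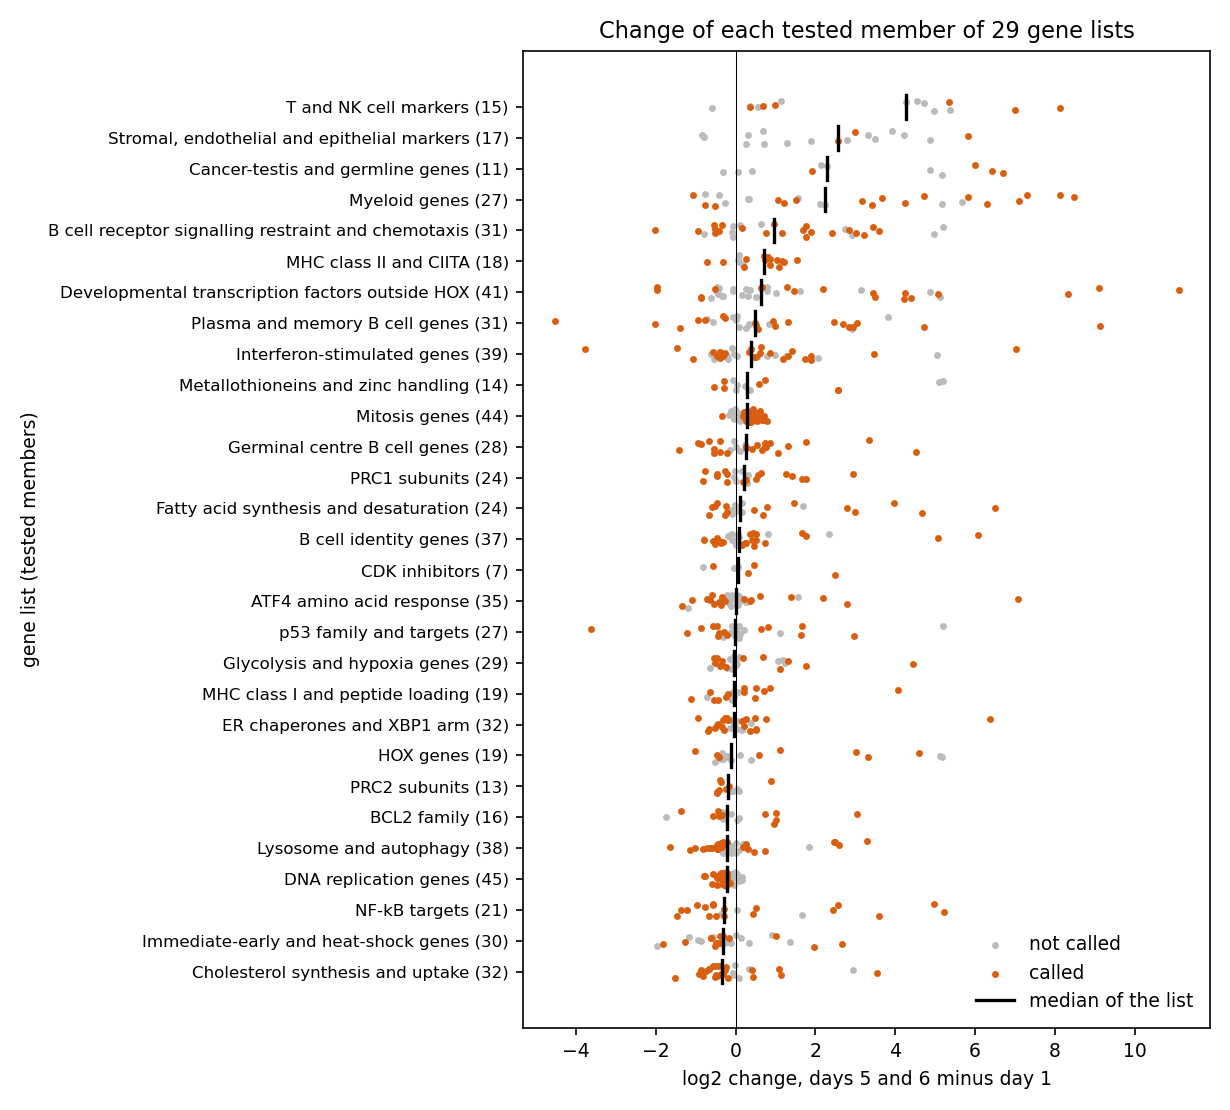
Each point is a tested member of a gene list, placed by its log2 difference of days 5 and 6 from day 1 and coloured where called, and bars mark list medians. The MHC class II list has a median of 0.72 and the cholesterol list -0.34, against -0.05 over all tested genes. Medians of lists rich in silent genes, such as T and NK markers, include members that passed the filter only through groups other than untreated and day 1. With the libraries of days 1, 5 and 6 alone, 10 of the 15 T and NK members were tested and their median was 0.92.

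Day 6 differed from day 5 by at least 2-fold in 16 genes (0.105%), 8 higher (0.0524%) and 8 lower (0.0524%). RIMS1, an organiser of synaptic release sites, had no count at day 1, then 2.59 and 1.54 CPM on day 5 and 8.54 and 8.53 CPM on day 6 (log2 difference 2.05, SE 0.45, adjusted p = 0.036). COL6A3, a collagen chain, rose from 6.89 and 7.08 CPM to 15.8 and 16.1 CPM between those days. AHR, the dioxin receptor, fell from 14.1 and 14.6 CPM to 5.94 and 4.93 CPM, and its target and repressor AHRR from 20 and 21.6 CPM to 9.35 and 9.89 CPM. HSPA12A, a divergent HSP70 protein, fell by 1.57 (SE 0.15). CHGA, a granule protein of endocrine cells, reached 10.6 CPM in day 5 replicate 2 but 0.958 CPM in replicate 1, with 0.029 and 0 CPM on day 6, so its replicates of day 5 lay far apart.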

How the data were processed

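The authors deposited 1 table of raw read counts per gene symbol for 13 SUDHL10 RNA-seq libraries (TruSeq V2 kit, 50 bp single-end reads, per the labels' protocols). The submitters' processing notes name STAR 2.5.3a, Bowtie2 2.3.4.3, SICER 0.0.1, Cell Ranger 3.0.2 and DESeq2 with the build mm9 for the series; no source used here gives the counter, build or annotation of the human counts. The kit does not mark strand, so overlapping genes cannot be told apart, and near-identical copies (HLA genes, MT1X, SSX1, HSPA1B, IGLL5) are uncertain. Both untreated columns share 1 header and were used as unnumbered replicates.

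Counts were tested with edgeR 4.0.16 in R 4.3.3 (filterByExpr, TMM scaling, quasi-likelihood F test, 1 mean per compound and day over all 13 libraries, Benjamini-Hochberg adjustment over 15278 genes). The main contrast was the mean of days 5 and 6 minus day 1. CPM is per TMM-scaled library size; totals ran from 26234896 to 39315662 counts. Counting intervals are exact and cover counting error only. On simulated data (14450 genes, days 5 and 6 against day 1) 63.8%, 63%, 83.3% and 86.7% of changes of 1.5, 2, 4 and 8-fold were recovered, and 15 of 153 calls (9.8%) were false. That false share is above the threshold of 0.05. The simulation changed only 45 to 48 genes of each size, while 49.3% of tested genes were called in the data, so these rates do not carry over.

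The libraries, gene lists and named-gene rule were chosen with earlier results of these data known. Named were PRC2 core genes and CDKN2A, the 15 largest rises and falls among called genes whose mean log2 CPM reached 1, with no overlap between late and day 1 libraries (clone, locus, immunoglobulin and HLA copies left out), and up to 4 called members of each of 30 lists with the smallest adjusted p. Other genes named in the text, among them GATA4, HOXA9, HOXB9, CBX7, CCND2, MCL1, CIITA, PAX5, PRDM1, IRF4, KLF2, CCR7, CXCR5, CXCR4, CCR6, CD33, CSF1R, LIN28B, ABCA1, MYLIP, FASN, RIMS1, COL6A3, AHR, AHRR, HSPA12A and CHGA, were chosen after their values were seen. Some genes that this rule names are not reported here. None of 26 listed mitochondrially encoded genes was in the table. Alternatives were DESeq2 1.42.0 and its size factors, library size scaling, no filter, fewer libraries, a replicate block and leaving out each library.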

Additional observations from a re-analysis of the deposited data

Results flagged for a closer look

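Day 6 differed from day 5 in 19 of the 183 named genes by edgeR's adjusted p, a difference that was itself tested, against 120 of all 15278 tested genes (0.785%). The named genes were mostly picked for clear late changes or after their values were seen, so their share is not a result about them. The count over all genes rests on single libraries, as given above. The log2 difference of day 6 from day 5 was 0.93 for SYNPO, 0.81 for ACE, 1.2 for ABCG1, 0.84 for AGR2, 0.37 for HLA-DPB1, 0.8 for LILRB1, 0.99 for S100A4, 0.88 for DCN, 0.54 for RGS13 and 2.05 for RIMS1. It was -0.65 for PVRL1, -0.76 for PPP1R15A, -0.54 for SLC7A5, -0.41 for DNAJC3, -0.58 for OAS3, -0.87 for TNF, -1.4 for AHR, -1.12 for AHRR and -1.57 for HSPA12A. RIMS1, AHR, AHRR and HSPA12A were picked for this difference.

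In 4 of 183 genes 1 late library lay far from the other 3, with a gap past the 95% limit of Dixon's test for 4 values; chance gives about 1 in 20 groups. The gap was 0.84 of the range for CEMP1 (4.42 CPM in day 5 replicate 2 against 1.93 to 2.33) and 0.838 for MAP1LC3B (68.5 CPM in day 6 replicate 2 against 63.6 to 64.4). It was 0.895 for MUC1 (0.725 CPM in day 5 replicate 1 against 0.303 to 0.347) and 0.92 for CBX7 (16 CPM in day 5 replicate 2 against 11.8 to 12.1).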

How the results depend on the processing

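The number of genes called at days 5 and 6 against day 1 stayed within 1.5 times of 7533 under all 14 alternatives, from 5370 without day 1 replicate 2 to 7757 in the 6 libraries alone, and the 2-fold count lay between 1954 and 2420. The falls taken alone moved further: without day 1 replicate 2 those called went from 4136 to 2418 and those of at least 2-fold from 356 to 214. The share of rises among all called genes was 45.1% with TMM over 13 libraries and 53.9% with DESeq2 size factors, and the median of all genes moved from -0.05 to 0.02. The 120 genes of day 6 against day 5 became 270 with no filter, 489 in the 6 libraries alone and 194 with DESeq2, and 17 to 90 when 1 library was left out. With library size scaling list medians moved to -0.14 for PRC2, 0.26 for PRC1, -0.29 for cholesterol and -0.17 for lysosome genes. EZH2 was not called, and its difference turned to 0.02 under 7 alternatives and ran from -0.14 to 0.1 when 1 library was left out, positive only without day 1 replicate 2. CDKN2A, not called either, turned to 0.04 under 7 alternatives, 0.01 with library size scaling, and -0.09 to 0.09 when 1 library was left out, likewise positive only without day 1 replicate 2. With days 5 and 6 as 1 group, AHRR turned to 0.08 and HSPA12A to 0.06. The cause was not tested. Equal replicate numbers gave no steady sign of pairing: correlations of their deviations were 0.34 between days 1 and 5 and -0.14 to 0.14 over the other pairs of days. Days 1 and 5 are compared here, so this check cannot exclude pairing. With the replicate as a block, 7168 genes were called against 7246 without it in the same 8 libraries. Genes under 1 CPM at day 1 rest on few counts, and their sizes have wide intervals.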

Other observations

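MAK683, which binds EED and so blocks the same complex at another subunit, was represented by 1 library each at days 1, 3 and 5, without replicates, and its values stand here with no test. SYNPO had 0.678, 2.27 and 95.3 CPM at days 1, 3 and 5 of MAK683. ACE had 0.0339, 0.442 and 1.69 CPM, HSPG2 0.169, 1.47 and 4.81 CPM, and SOX9 no count on any of these days. AGR2 had 1.73, 4.78 and 0.38 CPM. These day 5 values were below every UNC1999 library of day 5 for ACE, HSPG2, SOX9 and AGR2, while SYNPO lay between the 2 day 5 libraries of UNC1999. Among the falls, VIM had 80.2, 123 and 29.6 CPM, IFITM1 17.9, 20.3 and 0.173 CPM, and TP63 9.05, 12.8 and 120 CPM. BACH2 had 2.81, 17.3 and 231 CPM and MS4A1 326, 360 and 1010 CPM.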
